A study of Mus musculus with 6 samples.

Results

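Respiratory chain subunits encoded in the nucleus were followed in RNA sequencing of mouse induced renal epithelial cells with and without a Pkd1 deletion. Genes were taken by symbol: Ndufa, Ndufb, Ndufc, Ndufs and Ndufv subunits, Sdha to Sdhd, the Uqcr genes with Cyc1, Cycs, the Cox4 to Cox8 subunits and the Atp5 subunits, without pseudogenes. Of 86 symbols matched, 79 averaged at least 1 CPM (counts scaled to the library total) over the count files and were kept, out of 49671 genes listed. They comprised 35 genes of complex I, 4 of complex II, 9 of complex III, 13 of complex IV, 17 of complex V and the cytochrome c gene Cycs.

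Complexes I and II of the inner mitochondrial membrane take electrons from NADH and succinate, complex III passes them to cytochrome c, and complex IV hands them to oxygen. Complexes I, III and IV pump protons as they do so, and complex V, the ATP synthase, lets the protons flow back to make ATP. Most subunits are nuclear genes whose proteins are imported into the mitochondrion, and tubule epithelium of the kidney is rich in these complexes.

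The cells, called iRECs in the labels, are made from fibroblasts by forced expression of kidney transcription factors, and carried the B6.129S4-Pkd1tm2Ggg/J strain label. In the 3 Cre cultures, of clones 4, 7 and 21, transduction with Cre recombinase gave the genotype labelled Pkd1 -/-. The 3 Flp cultures of the same clones were transduced with Flp recombinase and kept the floxed gene (Pkd1 fl/fl, labelled wild type). All 6 cultures were grown to confluency in the same serum medium, and each clone pair is a single Cre and a single Flp library of a single clone. No label ties the clones to separate animals, and p-values here cover no more than the spread among these pairs.

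Library totals ran from 25196120 to 46918341 gene counts. Pkd1 was at 145, 105 and 118 CPM in Cre clones 4, 7 and 21, against 199, 229 and 166 CPM in the matching Flp clones, at -0.69 on the log2 scale (SE 0.16, edgeR adjusted p = 0.6065). The adjusted p of Pkd1 was 0.0275 with DESeq2, and the authors' deposited table gave it a log2 fold change of -0.57 with an adjusted p of 0.0370. All 11 tubule epithelium markers examined averaged at least 1 CPM, with summed levels of 5323 to 6702 CPM in Cre and 5509 to 6874 CPM in Flp; among them Hnf4a, Pax8 and Emx2 belong to the factors used to make such cells. Of 36 markers of fibroblasts, muscle, brown fat, endothelium and blood, 5 reached 1 CPM. The 13 subunits encoded in mitochondrial DNA were listed with 0 reads in every library, so nuclear and mitochondrial subunits could not be set side by side.

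Nuclear respiratory factor 1, ETS factors such as GABPA, YY1 and the estrogen-related receptors are known to bind promoters of respiratory chain genes. Promoter sequences of RefSeq (GRCm38.p6), from 250 bases before to 50 bases after the start, were matched for 66 of the 79 genes and searched on both strands. The following stretches of 60 bases show a gene of each complex, with the motif in capitals: the motif of nuclear respiratory factor 1 in the first 4, whose sixth letter was free (GCGCATGCGC in Ndufa11, GCGCAGGCGC in Sdha), and CCGGAAG for ETS factors in Uqcr11. They lie at chr17:56717677-56717736 (plus strand, Ndufa11, complex I), chr13:74350304-74350363 (minus strand, Sdha, complex II), chr5:115349086-115349145 (minus strand, Cox6a1, complex IV), chr5:108434415-108434474 (minus strand, Atp5k, complex V) and chr10:80406854-80406913 (minus strand, Uqcr11, complex III).
Ndufa11: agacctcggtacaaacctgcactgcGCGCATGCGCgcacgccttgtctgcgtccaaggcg
Sdha: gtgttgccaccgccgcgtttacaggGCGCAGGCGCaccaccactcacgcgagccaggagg
Cox6a1: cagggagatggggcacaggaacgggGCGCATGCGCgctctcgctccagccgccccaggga
Atp5k: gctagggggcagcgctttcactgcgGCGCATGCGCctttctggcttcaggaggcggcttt
Uqcr11: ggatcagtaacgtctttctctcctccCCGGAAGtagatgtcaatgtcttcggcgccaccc

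The nuclear respiratory factor 1 motif was found in 17 of the 66 subunit promoters (25.8%). It was found for 11.1% of the 10898 tested genes with a matched promoter and 5.19% of all 27025 genes with a promoter sequence. Those sets are also the background for the motifs below. The ETS motif was found in 16 subunit promoters (24.2%, against 19.5% of tested genes and 9.93% of all), and the YY1 motif AAGATGGC in 10 (15.2%, against 5.10% and 3.19%). No subunit promoter had overlapping copies of these motifs, and 37 (56.1%) held at least 1 of them, against 31.5% of tested genes and 16.4% of all. The GC box GGGCGG, bound by SP1, was found in 28 (42.4%), against 67.6% of tested genes and 38.2% of all. The motif TCAAGGTCA of estrogen-related receptors was found in 2 (3.03%), against 0.312% and 0.466%. Subunit genes with the nuclear respiratory factor 1 motif had a median log2 fold change of -0.16, and those without it also stood at -0.16. The medians with and without a motif were -0.15 and -0.16 for ETS, -0.11 and -0.17 for YY1, -0.18 and -0.13 for the GC box, and -0.01 and -0.16 for the 2 genes with the estrogen-related receptor motif and the rest. A match describes letters in this window and not binding.

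In the comparison of Cre with Flp cultures, no subunit gene passed the test. edgeR's quasi-likelihood test with clone as a block called 0 of the 79 genes at an adjusted p under 0.05 after Benjamini-Hochberg adjustment over 15355 tested genes, of which 0% were called. At an unadjusted p under 0.05, 1 subunit gene was lower in Cre (Ndufa1) and 1 higher (Cox6b2), where 3.28% of all tested genes were lower and 3.54% higher. DESeq2 with the same block called 1.28% of tested genes and 0 subunit genes, and limma-voom called 0 of either. Of the 79 log2 fold changes, 60 were smaller than 0.25 in size and 77 smaller than 0.5, with a median standard error of 0.14. In the authors' deposited table, 0 of 78 subunit genes had an adjusted p under 0.05. A log2 fold change below 0 was given for 67 of the 78, against 9062 of all 18158 genes with a log2 fold change there. The median of the subunit genes was -0.13. The share of all genes with an adjusted p under 0.05 in that source was not counted, so the subunit calls there have no background beside them.

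Small differences leaned to lower levels in Cre; in bulk RNA, fewer cells of a type and less RNA per cell cannot be told apart. The median log2 fold change of the 79 genes was -0.14, against 0.00 over all tested genes, and 66 of 79 were below 0, where 49.3% of all tested genes were. The lean was not shared by the 3 clones: the median log2 ratio of Cre over Flp was -0.31 in clone 4, 0.07 in clone 7 and -0.12 in clone 21. Ratios were below 0 for 70 of 79 genes in clone 4, 32 in clone 7 and 60 in clone 21, where 50%, 49.4% and 49.8% of all tested genes were. In every clone 23 genes were lower in Cre (29.1%, against 13.1% of all tested genes) and 2 were higher, Ndufb2 and Cox6b2 (2.53%, against 14.6%). Without clone 4 the median of the 79 genes was -0.05 and 50 were below 0. Without clone 7 the median was -0.23 and 71 were below 0.

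**Figure D1:**
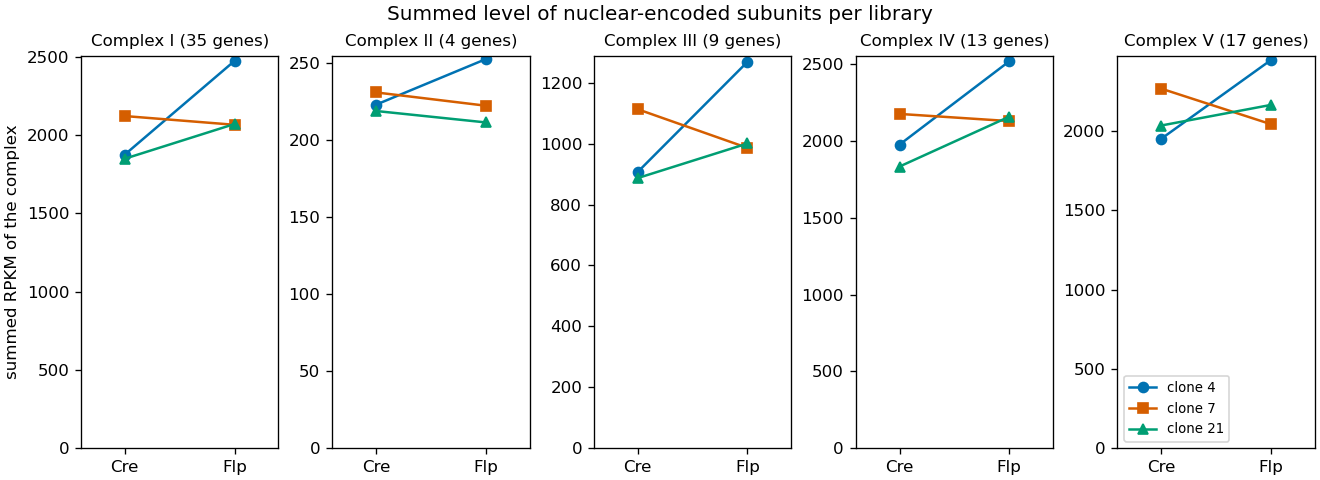
Summed level of the subunit genes of each complex, in CPM per kilobase of transcript (RPKM, y axis from 0), in Cre and Flp libraries, with a line joining the libraries of a clone. Flp clone 4 is the highest point in all 5 panels, and the clone 7 line runs the other way from that of clone 4.

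The sums per library show the same split. Summed over the 79 genes, the level was 6932, 7908 and 6823 RPKM in Cre clones 4, 7 and 21, against 8961, 7446 and 7606 RPKM in Flp clones 4, 7 and 21. Flp clone 4 was the highest and Cre clone 21 the lowest, and the groups overlapped, since Cre clone 7 stood above Flp clones 7 and 21. Flp clone 4 had the highest value for 55 of the 79 genes, while Cre clone 4 had the lowest for 26 and Cre clone 21 for 22. The genes took 0.673% to 0.813% of all counts.

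Sequencing depth moved with these levels. Totals were 41574605, 29451753 and 46918341 in Cre clones 4, 7 and 21, against 25196120, 40274665 and 26758752 in Flp clones 4, 7 and 21. Within each clone the shallower library had the higher summed level of subunit genes: Flp in clones 4 and 21, Cre in clone 7. The summed level of the 11 tubule epithelium markers moved the same way, at 6228, 6702 and 5323 CPM in Cre clones 4, 7 and 21, against 6874, 5861 and 5509 CPM in Flp clones 4, 7 and 21. The 6 proximal tubule markers moved the other way in clones 4 and 7, with sums of 4443, 4009 and 3819 CPM in Cre clones 4, 7 and 21, against 3452, 5415 and 4280 CPM in Flp clones 4, 7 and 21. The part of these markers in the result was not tested. With depth as a covariate beside the clone block, the median log2 fold change of the 79 genes was -0.08, and 57 of 79 were below 0. In that fit the medians were -0.09 for complex I, -0.01 for II, -0.09 for III, -0.09 for IV and -0.04 for V. It left a single residual degree of freedom and was chosen after seeing the data.

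**Figure D2:**
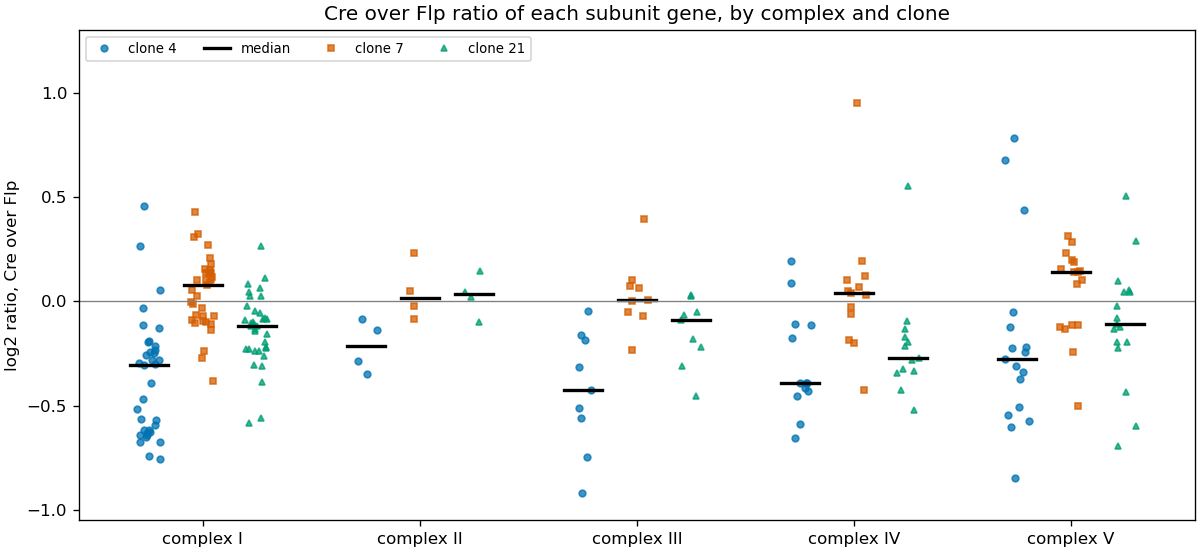
Log2 ratio of Cre over Flp (y axis) for each subunit gene, by complex and clone, with the median of each clone as a black bar. In complexes I, III, IV and V the clone 4 median is the lowest, between -0.43 and -0.28, and the clone 7 median the highest, between 0.01 and 0.14.

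Complex I, which oxidises NADH, had summed levels of 1875, 2121 and 1849 RPKM in Cre clones 4, 7 and 21, against 2473, 2065 and 2070 RPKM in the Flp clones. Its median log2 fold change was -0.16, with 32 of 35 genes below 0 and clone medians of -0.31, 0.08 and -0.12; the median was -0.05 without clone 4 and -0.26 without clone 7. The 7 core subunits, which carry the flavin and iron-sulfur clusters, had a median of -0.05, and the 28 accessory subunits stood at -0.21. Core subunits also have longer transcripts, with a median of 1623 bases against 693.5 bases for accessory subunits.

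Ndufa1, a small accessory subunit of the membrane arm encoded on the X chromosome (37187588 to 37191163, GRCm38), had the smallest p of all subunit genes. It was at 27.1, 29.9 and 23.8 CPM in Cre clones 4, 7 and 21, against 41.6, 39.0 and 35.7 CPM in Flp clones 4, 7 and 21. All Cre values lay below all Flp values. The Cre libraries averaged 27.0 ± 3.07 CPM and the Flp libraries 38.8 ± 2.94 CPM (SD, n = 3 each). The log2 fold change was -0.53 (SE 0.13) with clone ratios of -0.62, -0.38 and -0.58, and an edgeR adjusted p of 0.6065; with DESeq2 the adjusted p was 0.0877. The authors' deposited table gave a log2 fold change of -0.46 with an adjusted p of 0.0744. With depth as a covariate Ndufa1 stood at -0.46.

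Of the other accessory subunits, Ndufa7, the most abundant complex I gene at 144 RPKM, was at 64.9, 75.8 and 65.2 CPM in Cre clones 4, 7 and 21, against 92.6, 81.9 and 76.2 CPM in the Flp clones. These did not overlap, with Cre the lower and a log2 fold change of -0.28 (SE 0.12, edgeR adjusted p = 0.744). Ndufa11, a membrane-arm subunit, was at 25.6, 30.0 and 28.4 CPM in Cre and 40.9, 35.5 and 30.2 CPM in Flp clones 4, 7 and 21. Its highest Cre value lay just below its lowest Flp value, and the log2 fold change was -0.33 (SE 0.16). Ndufa12 was at -0.26 with clone ratios of -0.28, -0.27 and -0.24, so it differed little between clones. Ndufs6 was at -0.32, with ratios of -0.76, 0.11 and -0.31. Ndufv3, an accessory subunit of the NADH-oxidising tip, was at -0.24 (edgeR adjusted p = 0.782).

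In total 12 subunit genes had all Cre values below all Flp values, where 3.95% of all tested genes did: Ndufa1, Ndufa7, Ndufa9, Ndufa11, Ndufa12, Ndufc1, Ndufs4, Uqcrb, Uqcrh, Cox4i1, Cox7a2 and Atp5h. The first 7 of these belong to complex I. Ndufb2 alone had all Cre values above all Flp values (4.19% of all tested genes), at 11.6, 10.5 and 10.7 CPM in Cre clones 4, 7 and 21, against 8.48, 9.12 and 9.91 CPM in Flp clones 4, 7 and 21. Its log2 fold change was 0.26 (SE 0.20) in the count files, while the authors' deposited table gave -0.03 and 2.85 times the mean count found here. Ndufb2 shares exon bases with Braf and with the predicted genes Gm16272 and Gm42420, and reads of overlapping genes could not be told apart.

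Other complex I genes differed less. Ndufb9, an accessory subunit at 124 RPKM, had a log2 fold change of -0.04. The lowest levels were those of Ndufb4 (4.52 RPKM, log2 fold change 0.07) and Ndufs5 (5.48 RPKM, log2 fold change -0.16). Ndufab1, the acyl carrier protein that is also part of complex I and is not matched by the symbol rule, stood at -0.02, with ratios of 0.40, -0.42 and -0.04.

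Complex II, succinate dehydrogenase, is the enzyme shared with the citric acid cycle and contains no mitochondrially encoded subunit. Its summed levels were 223, 231 and 219 RPKM in Cre clones 4, 7 and 21, against 252, 222 and 211 RPKM in the Flp clones, a spread in which the groups overlapped. The median log2 fold change was -0.03, and it was 0.05 without clone 4 and 0.03 after subtracting the medians of genes within 5 Mb. Sdha, the flavoprotein, was at 238, 261 and 253 CPM in Cre and 252, 265 and 229 CPM in Flp clones 4, 7 and 21, and its log2 fold change was 0.01 (SE 0.10). The membrane anchors Sdhc and Sdhd stood at -0.06 and 0.04. The iron-sulfur subunit Sdhb was at 48.6, 44.2 and 44.2 CPM in Cre, against 62.0, 46.9 and 47.4 CPM in Flp clones 4, 7 and 21, lower in Cre in every clone, at -0.18 (SE 0.12, edgeR adjusted p = 0.877). Per kilobase Sdha was the most abundant (86.1 RPKM), followed by Sdhd (72.5), Sdhb (42.8) and Sdhc (24.9 RPKM).

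Complex III, the cytochrome bc1 complex, had summed levels of 907, 1113 and 887 RPKM in Cre clones 4, 7 and 21, against 1268, 986 and 1000 RPKM in the Flp clones. All 9 genes had a log2 fold change below 0, with a median of -0.14 and clone medians of -0.43, 0.01 and -0.09. Without clone 4 the median was -0.05, and without clone 7 it was -0.30. The 4 core genes (Uqcrc1, Uqcrc2, Uqcrfs1 and Cyc1) had a median of -0.10 and the 5 small subunits of -0.28. Uqcr11, a small subunit of the complex, was at 20.6, 30.2 and 21.8 CPM in Cre, against 38.9, 30.2 and 25.4 CPM in Flp clones 4, 7 and 21. Its log2 fold change of -0.38 (SE 0.21, edgeR adjusted p = 0.833) hides clone ratios as unequal as -0.92, -0.00 and -0.22.

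The other small subunits followed. Uqcr10 was at -0.28 with ratios of -0.75, 0.07 and -0.18. Uqcrb was at 10.4, 10.2 and 11.5 CPM in Cre and 11.8, 12 and 15.7 CPM in Flp clones 4, 7 and 21, without overlap, at -0.29 (SE 0.19). Uqcrh, the hinge protein that contacts cytochrome c1, was at 29.9, 29.6 and 28.9 CPM in Cre and 33.4, 31.1 and 30.2 CPM in Flp, also without overlap, but by a log2 fold change of only -0.10 (SE 0.12). Uqcrq, the most abundant of the complex at 405 RPKM, had ratios of opposite sign, -0.51, 0.40 and -0.31. Cyc1, cytochrome c1 itself, was at -0.22, and the core protein Uqcrc1 at -0.10.

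Cycs, the somatic cytochrome c that carries electrons to complex IV, was listed at the lowest level of all 79 genes, 0.630 RPKM. It was at 2.1, 2.1 and 1.7 CPM in Cre clones 4, 7 and 21, against 1.4, 1.7 and 2.8 CPM in Flp clones 4, 7 and 21, with ratios of 0.56, 0.32 and -0.70. Its chosen transcript shares stretches of at least 100 bases at 95% identity or more with 51 other annotated genes, 3 of them pseudogenes, over 35.03% of its length. No source used here says how reads with several matches were counted, which leaves the level of Cycs uncertain.

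Such near-identical stretches, called copies here, were found for other members too. Repeated sequence was not masked in the search, so a copy can be a shared stretch and need not be a copy of the gene. In all, 24 of the 79 genes had a copy, among them 8 of the 12 genes under 25 RPKM and 16 of the 67 at or above it. The median level was 40.7 RPKM with a copy and 78.0 RPKM without. Ndufs5 had a mean normalised count of 0.119 in the authors' deposited table and 111 in the count files, so its level differed between the sources. Of the 78 genes with a row in that table, 66 had a mean count within 1.2-fold of that found here. There, 8 were lower (7 with a copy, 2 with exon overlap) and 4 higher (0 with a copy, 4 with exon overlap). Of all 79 genes, 27 had exon overlap with another gene. The 55 genes without a copy had a median log2 fold change of -0.14, the same as all 79.

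**Figure D3:**
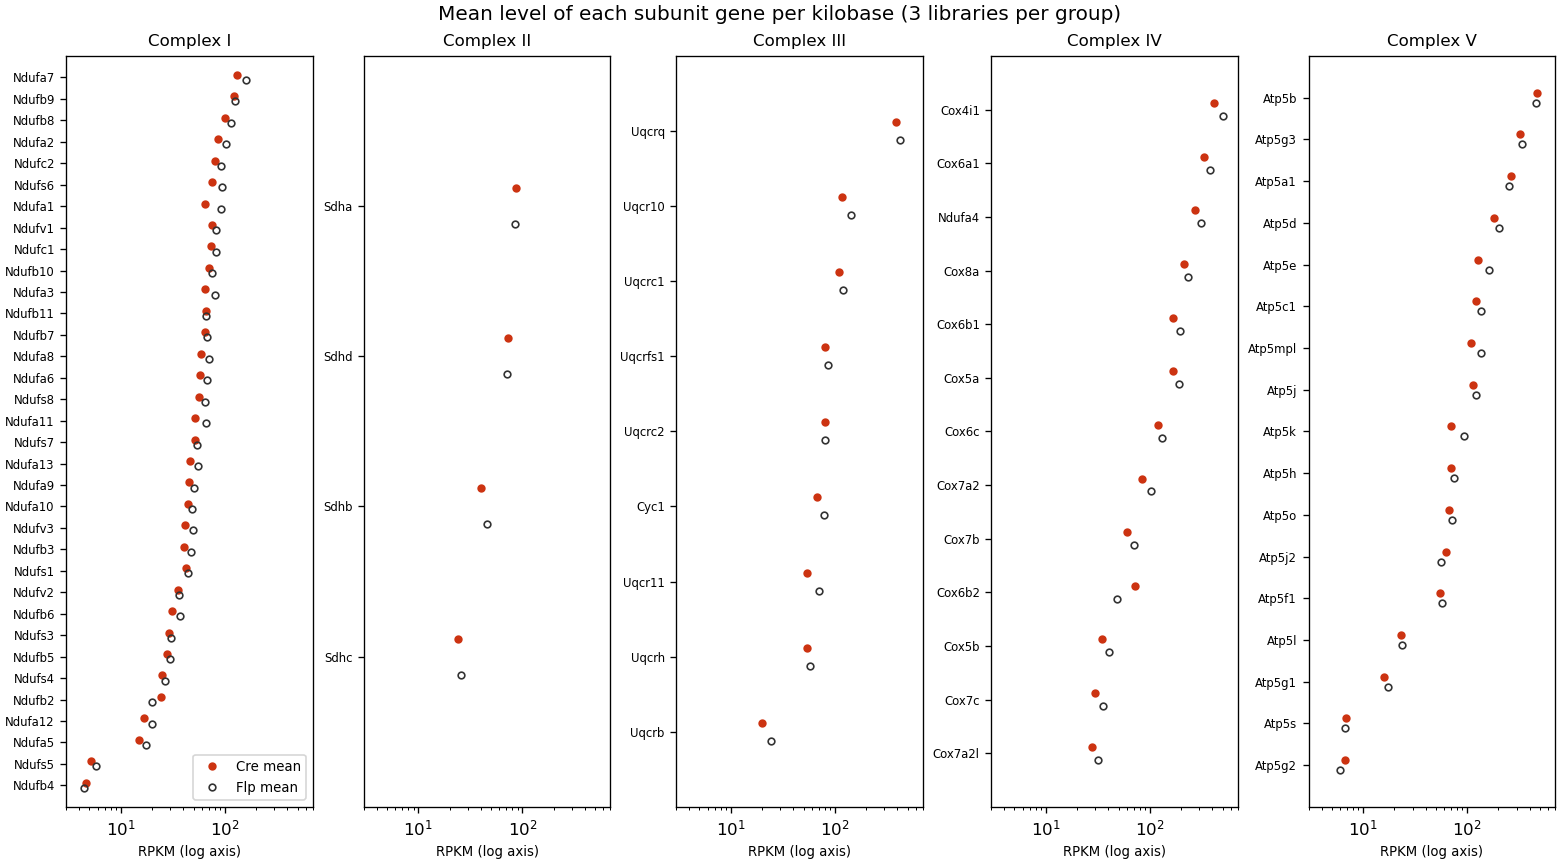
Mean level of the subunit genes named on the axes, in RPKM (log axis), with the Cre mean as a filled point above the open point of the Flp mean, 3 libraries each; Cycs, at 0.630 RPKM, is not drawn. Levels within a complex span 3.46-fold in complex II and 73.1-fold in complex V, while 77 of 79 log2 fold changes between the groups are smaller than 0.5.

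Complex IV, cytochrome c oxidase, had summed levels of 1976, 2176 and 1833 RPKM in Cre clones 4, 7 and 21, against 2518, 2129 and 2158 RPKM in the Flp clones. Its median log2 fold change was -0.19, with 12 of 13 genes below 0 and clone medians of -0.39, 0.04 and -0.27. Without clone 4 the median was -0.14. Cox4i1, the ubiquitous form of subunit 4 and the second most abundant of all members at 459 RPKM, was at 307, 345 and 282 CPM in Cre, against 402, 359 and 356 CPM in Flp clones 4, 7 and 21. All Cre values were lower than all Flp values, with means of 311 ± 31.7 CPM in Cre libraries and 372 ± 25.9 CPM in Flp libraries (SD, n = 3 each). The log2 fold change was -0.26 (SE 0.12, edgeR adjusted p = 0.750). Exons of Cox4i1 overlap those of Emc8 on the other strand.

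Cox7a2, the form of subunit 7a of non-muscle tissue, was at 52.4, 56.5 and 57.9 CPM in Cre and 71.8, 64.8 and 66.2 CPM in Flp clones 4, 7 and 21, again without overlap, at -0.28 (SE 0.12, edgeR adjusted p = 0.733). Its relative Cox7a2l, known for its part in assembling complexes III and IV into supercomplexes, was at -0.19 with ratios of -0.11, -0.19 and -0.27. Cox6a1, Cox8a and Ndufa4, a protein now counted with complex IV, were at -0.18, -0.14 and -0.19. Cox7c stood at -0.29, and its ratios were 0.09, -0.43 and -0.52.

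The exception in complex IV was Cox6b2, the testis form of subunit 6b, which lies on the cytochrome c side of the enzyme. Cox6b2 (chromosome 7, 4751792 to 4753094, GRCm38) was at 27.2, 48.3 and 45.2 CPM in Cre clones 4, 7 and 21, against 23.8, 25 and 30.8 CPM in Flp clones 4, 7 and 21. It was higher in Cre in each clone, but the groups overlapped, since Cre clone 4 lay below Flp clone 21. The log2 fold change was 0.57 (SE 0.18), with ratios of 0.19, 0.95 and 0.55, and the edgeR adjusted p was 0.646. With depth as a covariate it was 0.73 (edgeR adjusted p = 0.225). The widespread form Cox6b1 was at 93.5, 117 and 96.8 CPM in Cre and 141, 108 and 112 CPM in Flp, a log2 fold change of -0.23.

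Set against each other per kilobase, Cox6b2 made up 24.5%, 31.6% and 34.3% of the subunit 6b transcripts in Cre clones 4, 7 and 21, against 15.9%, 20.6% and 23.5% in Flp clones 4, 7 and 21. All Cre shares were above all Flp shares, by 8.6, 11 and 10.8 percentage points in clones 4, 7 and 21. The mean share was 30.1% ± 5.06 in Cre and 19.97% ± 3.83 in Flp (SD, n = 3 each). This is a description: an exact permutation test of 3 against 3 libraries cannot give a p under 0.1, and Cox6b2 stood out for its values. The share depends on the transcript lengths: over the union of annotated exons it was 19.8% in Cre and 12.5% in Flp. The authors' deposited table gave Cox6b2 a log2 fold change of 0.46 (adjusted p = 0.219). Its mean normalised count there was 879, against 1131 in the count files, while Cox6b1 stood at 3771 and 3775. The level of the share therefore also depends on the source of the counts.

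**Figure D4:**
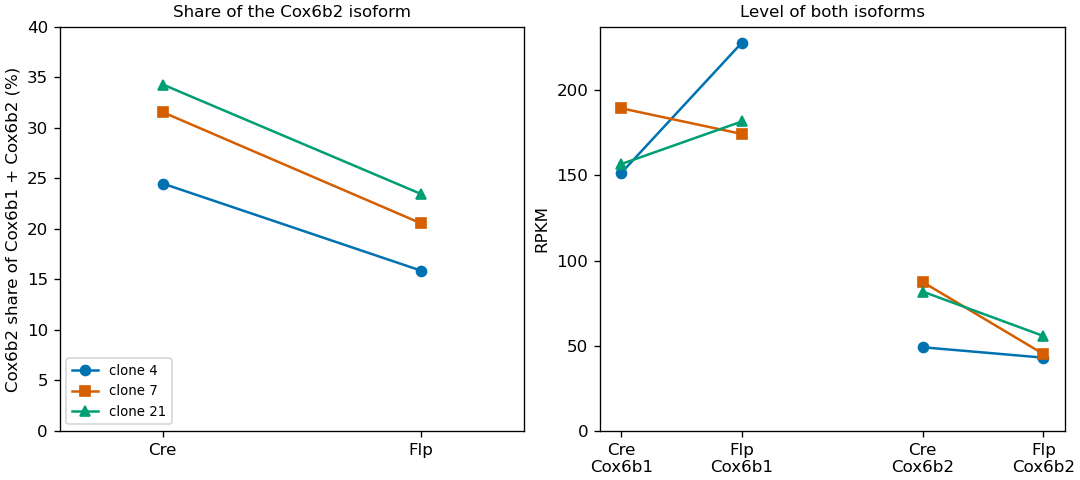
Left, share of Cox6b2 in the summed RPKM of Cox6b1 and Cox6b2 (percent, axis from 0); right, RPKM of each form; Cre and Flp libraries of a clone are joined. Every Cre share, 24.5% to 34.3%, lies above every Flp share, 15.9% to 23.5%.

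Other tissue forms of complex IV were near absent. Cox6a2, Cox7a1 and Cox8b, known from heart and skeletal muscle, and Cox4i2, known from lung, were among the 7 matched symbols under 1 CPM, with Ndufa4l2, Cox7b2 and Cox8c. By the lengths of the chosen transcripts, the share of Cox4i2 was at most 0.191% of subunit 4 (0.366% over the union of annotated exons), that of Cox6a2 at most 0.0845% of subunit 6a and that of Cox8b at most 0.114% of subunit 8. Cox7a1 reached 0.379% to 1.64% of the sum with Cox7a2, from 4 to 22 reads per library. Ndufa4l2, known to be induced by hypoxia, had at most 3 reads in a library. Cox7b2 and Cox8c had 0 reads in all libraries, which allows up to 0.0632 CPM in the deepest and 0.121 CPM in the shallowest, for counting error only.

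Complex V, the ATP synthase, had summed levels of 1952, 2267 and 2035 RPKM in Cre clones 4, 7 and 21, against 2448, 2043 and 2165 RPKM in the Flp clones. The median log2 fold change was -0.08, 11 of 17 genes were below 0, and the clone medians were -0.28, 0.14 and -0.11. The median was 0.02 without clone 4 and -0.13 without clone 7. The subunits of the catalytic head were abundant, and their clone ratios differed in sign. Atp5b, the beta subunit and the highest of all 79 genes at 465 RPKM, was at 838, 990 and 869 CPM in Cre and 1016, 797 and 837 CPM in Flp clones 4, 7 and 21. The groups overlapped, and the log2 fold change was 0.03 (SE 0.15) with ratios of -0.28, 0.31 and 0.05. Atp5a1, the alpha subunit, was at 0.05 with ratios of -0.22, 0.28 and 0.10.

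Among small complex V subunits, Atp5k, Atp5mpl and Atp5e stood lower in Cre in clones 4 and 21. Atp5k, the e subunit of the membrane part, known for its place where ATP synthase dimers form, was at 22.8, 35 and 19.3 CPM in Cre, against 41.2, 30.6 and 31.3 CPM in Flp clones 4, 7 and 21. The ratios were -0.85, 0.20 and -0.69, and the log2 fold change of -0.45 (SE 0.23, edgeR adjusted p = 0.813) hides the opposite sign of clone 7. Atp5mpl, a small membrane protein of the complex, was at 44.1, 38.4 and 38.2 CPM in Cre and 54.8, 41.6 and 51.6 CPM in Flp, lower in Cre in each clone, at -0.29 (SE 0.12, edgeR adjusted p = 0.740). Atp5e, the epsilon subunit of the stalk, was at -0.35 with ratios of -0.60, 0.15 and -0.60; tested genes within 5 Mb of it had a median ratio of -0.55 in clone 21. Atp5j2, the f subunit, was at 0.21 with 0.68 in clone 4, where genes within 5 Mb had a median of 0.76. Subtracting such neighbour medians from every gene left clone medians of -0.31, 0.06 and -0.14 over the 79 genes.

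The c subunits form the rotating ring and are encoded by 3 genes whose mature proteins are known to be identical. Atp5g3 supplied most of the transcripts, 93.5% ± 0.36 of the summed RPKM in Cre and 93.6% ± 0.77 in Flp (SD, n = 3 each). Atp5g1 made up 4.6% in Cre and 4.7% in Flp, and Atp5g2 made up 1.95% in Cre and 1.68% in Flp. Over the union of annotated exons Atp5g1 made up 2.04% in Cre and 2.10% in Flp. Atp5g2 matches near-identical sequence of other genes over its whole chosen transcript and Atp5g1 over 59.5% of it, so both shares are uncertain. Atp5s, now named Dmac2l in RefSeq and retained by its symbol, was among the lowest at 6.73 RPKM and had a log2 fold change of 0.02. Usmg5, a subunit not matched by the symbol rule, stood at -0.11.

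Across complexes, the medians differed by transcript length. The 40 subunit genes with transcripts under 750 bases had a median log2 fold change of -0.20, the 23 genes from 750 to under 1500 bases -0.17 and the 16 genes of 1500 bases or more -0.06. Other tested genes stood at -0.03 under 750 bases, -0.04 from 750 to under 1500 bases 0.01 from 1500 to under 3000 bases and 0.02 from 3000 bases on. Under 750 bases, subunit genes had clone medians of -0.40, 0.07 and -0.20 in clones 4, 7 and 21, and other genes 0.10, -0.09 and -0.09. Whether length has a part in the result was not tested.

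**Figure D5:**
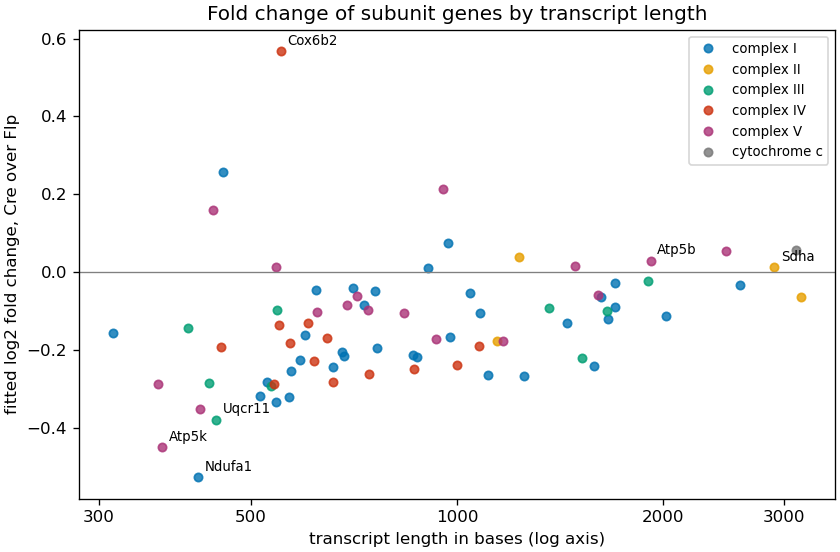
Fitted log2 fold change of Cre over Flp (y axis) against transcript length in bases (log axis) for the 79 subunit genes, coloured by complex. Short genes such as Ndufa1 (-0.53), Atp5k (-0.45) and Uqcr11 (-0.38) lie lowest, Cox6b2 (0.57) highest, and the long genes Atp5b and Sdha near 0.

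Genes around the respiratory chain were described by lists. Among 44 tested assembly factors, which build the complexes, the median log2 fold change was -0.04 with clone medians of -0.23, 0.02 and 0.00, 28 were below 0 and none passed the edgeR test; the smallest p was that of Coa6, a complex IV copper factor, at -0.45 and lower in every clone. Regulators of mitochondrial biogenesis (13 genes) and citric acid cycle enzymes (13 genes) each had a median of -0.04, and none passed. The smallest p in these lists were those of Perm1 and Sucla2. Perm1, a regulator of oxidative muscle genes, was at 1.41 (SE 0.51), with 1.96 CPM in Cre and 0.842 CPM in Flp. The Perm1 ratios were 2.56, 0.54 and 1.16 in clones 4, 7 and 21, and Flp clone 4 was at only 0.283 CPM. Sucla2, a succinyl-CoA ligase subunit on chromosome 14, was at 0.57. Its ratios were 0.03, 0.89 and 0.77 in clones 4, 7 and 21, so clone 4 hardly differed. The cause of this difference between clones was not tested. The 77 tested mitochondrial ribosome genes stood at -0.08, with clone medians of -0.21, 0.09 and -0.12, and the 72 cytosolic ribosome genes at -0.18, with -0.23, 0.01 and -0.26. None of these ribosome genes passed, and clone 7 had the highest clone median in both lists.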

How the data were processed

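Total RNA was sequenced from 6 cultures. The submitters' processing notes name the builds mm10 and GRCm38, with DESeq2 2.11.40.1, featureCounts 1.6.0.3, STAR 2.5.2b-2, Trim Galore 0.4.3.0 and FastQC 0.67. The strand setting is not given in the sources used here. What the authors deposited were raw counts by Ensembl gene, not normalized, and a comparison table whose mean normalised count is a signal over all libraries, with a log2 fold change, its standard error, a Wald score and a p-value. Its positive fold changes were taken to mean a higher level in Cre, since 74 of 78 subunit signs matched. That match is therefore not separate support for the direction of the subunit genes. Pkd1, lower in Cre in the count files, was also below 0 there, at -0.57.

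The member rule, gene lists, named genes and tests were chosen with earlier results of these data known. Named genes were, per complex, the 3 most and 2 least abundant and the 3 of smallest p, the tissue isoforms, and the member of smallest p of each other list; Ndufa11, Ndufa12, Ndufs6, Ndufb2 and Atp5j2 were added after their values were seen. Some of the genes it took are left out of the text and of the plot of levels. Symbols, coordinates and lengths came from GENCODE M21 (GRCm38); the length is the lower median over a gene's best-ranked transcripts. Ndufa4 was placed in complex IV.

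The tests ran in R 4.3.3: edgeR 4.0.16 (filterByExpr, TMM, quasi-likelihood test, clone as block, 2 residual degrees of freedom), limma 3.58.1 and DESeq2 1.42.0. Only the edgeR test was tried on simulated data, which held no differences between clones. CPM and RPKM use TMM-scaled totals, and clone ratios a prior count of 2. Standard errors come from the F statistic. Near-identical copies were found with BLAST 2.17.0. The block follows the series design; after removing group means, libraries of clones 4, 7 and 21 correlated with their own partner at 0.202, 0.115 and 0.304, and with libraries of another clone at -0.268 to 0.0233. No libraries agreed within sampling noise. Alternatives were other tests, normalizations and filters, leaving out each clone, and, added after seeing the data, other member sets and depth as a covariate.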

Additional observations from a re-analysis of the deposited data

Results flagged for a closer look

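Clones 4 and 7 stood on opposite sides of 0. The median log2 ratio of Cre over Flp of the 79 subunit genes was higher in clone 7 than in clone 4 by 0.378. By complex the same difference was 0.384 for complex I, 0.226 for II, 0.436 for III, 0.429 for IV and 0.418 for V. The clone 7 median of complex III was only 0.01. After subtracting the medians of genes within 5 Mb it was -0.07, below 0 as in clone 4, while that of the other complexes stayed above 0. Each clone is a single pair of libraries, so the difference between clones was not tested. Depth moved with it, Cre being the deeper library in clone 4 and the shallower in clone 7.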

How the results depend on the processing

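No alternative called a subunit gene. The median of the 79 genes stayed below 0 under every alternative run, from -0.23 without clone 7 to -0.05 without clone 4. Leaving out the replicate block (clone) gave -0.15 and changed no call. At an unadjusted p under 0.05, the subunit genes lower in Cre numbered 11 without clone 7 and 0 without clone 21. They numbered 4 with upper quartile factors and 3 without a filter on low counts. The share of all tested genes lower at that p was not counted under these settings, so these counts have no background beside them. Over all genes, edgeR called 224 without the filter and 27 with depth as a covariate, DESeq2 196, and none of these was a subunit gene. Pkd1 passed with DESeq2 (adjusted p = 0.0275) and in edgeR without the filter (adjusted p = 0.0224).

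Among the named genes, 16 signs turned when a clone was left out; none was called, and the cause was not tested. The lowest and highest log2 fold changes were -0.13 and 0.0499 for Ndufb9, -0.023 and 0.21 for Ndufb4, -0.38 and 0.083 for Ndufs5, -0.057 and 0.061 for Sdha, -0.057 and 0.13 for Sdhd, -0.12 and 0.047 for Sdhc, -0.41 and 0.041 for Uqcrq. They were -0.20 and 0.062 for Uqcrc1, -0.20 and 0.45 for Cycs, -0.11 and 0.18 for Atp5b, -0.16 and 0.093 for Atp5g3, -0.059 and 0.19 for Atp5a1, -0.13 and 0.087 for Atp5s, -0.25 and 0.0025 for Cox8a, and -0.38 and 0.13 for Atp5g1. With depth as a covariate, signs turned for Ndufb9 (0.041), Ndufs5 (0.022), Sdha (-0.0069), Uqcrq (0.092), Atp5g3 (0.022) and Atp5s (-0.052).

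Isoform shares over all libraries depend on the length used: over union exons they were 0.179% for Cox4i2, 16.2% for Cox6b2, 0.0332% for Ndufa4l2, 2.07% for Atp5g1 and 96.4% for Atp5g3. From reads alone they were 1.13% for Atp5g2 and 94.3% for Atp5g3.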
